A study of Mus musculus with 6 samples.

Results

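Oligodendrocytes wrap axons in myelin, a stack of lipid-rich membrane that lets impulses travel fast, and they arise from precursor cells that persist in the adult brain. A precursor first becomes a premyelinating cell and then a mature, myelinating one, and each step has its own transcripts. The data described here cover 29 genes that mark this lineage, chosen as known markers, listed by symbol, and each found among the 51826 genes of the deposited table. They were ordered by role into 5 precursor genes, 3 transcription factors of the whole lineage, 4 premyelinating genes and 17 genes of mature cells.

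Messenger RNA was sequenced from mouse brain tissue that the labels give as the paraventricular nucleus, a small hypothalamic nucleus that controls hormone release and sympathetic outflow. One group held 3 libraries from wild-type mice (WT), and the other held 3 libraries from mice with an ADAM17 knockout in glutamatergic neurons (KO). Replicates 1 and 2 of each genotype came from male mice and replicate F1 from a female mouse. The labels give no age, strain, Cre driver, deleted exon or treatment, and do not say whether a library is 1 animal or a pool, so p-values measure the spread between these libraries. ADAM17 is a membrane protease that releases growth factors and cytokines from cell surfaces, and its knockout was in neurons, not in the cells whose genes are described.

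The libraries held 35114426 to 54421330 counts. Mitochondrially encoded genes took 7.22% to 7.64% of the counts in WT and 20.6%, 9.20% and 7.80% in KO replicates 1, 2 and F1. Adam17, measured over the whole gene and all cells, is given in CPM, counts scaled to a common library size with TMM factors. In the order of replicates 1, 2 and F1, used throughout, WT held 17.1, 17.2 and 15.6 CPM and KO 15.4, 14.6 and 13.9 CPM. All KO values were below all WT values, with a log2 fold change of −0.19 (SE 0.11) that missed the threshold (edgeR adjusted p = 0.747), and whole-gene counts of whole tissue do not check a deletion confined to some neurons. The 6 markers of the labelled nucleus, Avp, Oxt, Crh, Trh, Sim1 and Otp, summed to between 29.8 and 107 CPM per library, while 9 genes of cortex and hippocampus summed to between 1091 and 1761 CPM.

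The lineage was present in every library and the mature genes were by far the most abundant. In TPM, the deposited values scaled by length and depth, the mature genes summed to 3335, 3349 and 3976 in the WT libraries and to 2283, 2899 and 3414 in KO. Their sum was lowest in KO replicate 1, and the genotypes overlapped. Precursor genes summed to 83.8, 78.4 and 108 TPM in WT and to 61.0, 81.5 and 84.6 TPM in KO. KO replicate 1 had the lowest TPM for 26 of the 29 genes, against 8 of 29 in TMM-scaled CPM. In CPM it was lowest for 29.5% of all genes tested, and the same share in TPM was not counted. The count of 26 is thus not a trait shown to be particular to the lineage. The part of the mitochondrial share of KO replicate 1 in the difference between TPM and CPM was not tested. The ratio of the mature to the precursor sum, which does not depend on that total, was 39.8, 42.7 and 36.9 in WT and 37.4, 35.6 and 40.3 in KO. The premyelinating sum was 7.18%, 7.02% and 6.83% of the mature sum in WT and 7.48%, 7.13% and 6.63% in KO. Both ratios overlapped between the genotypes.

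**Figure D1:**
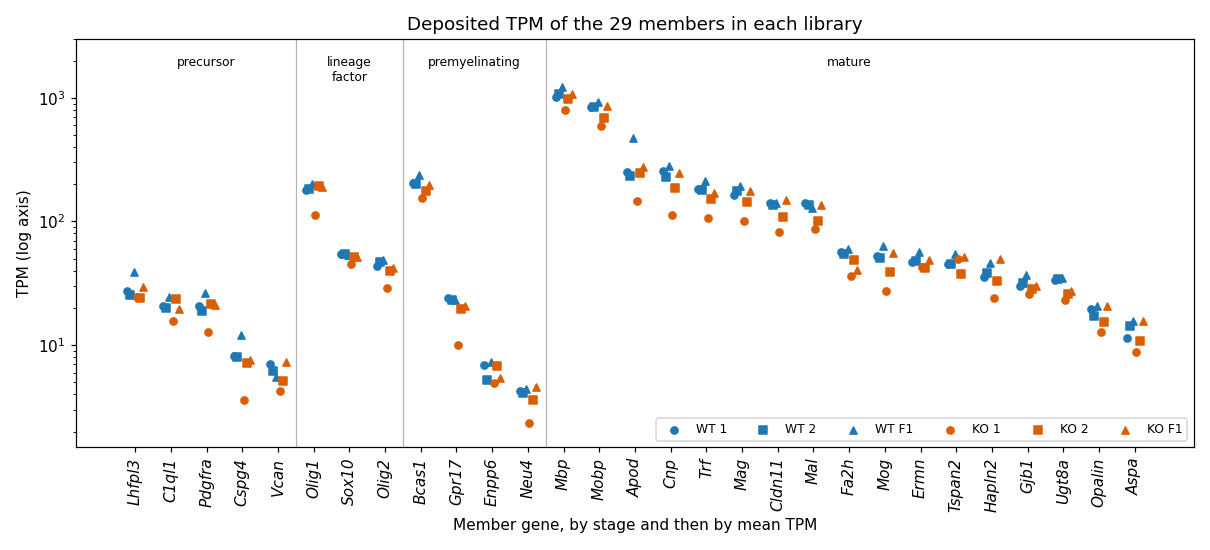
TPM of each member in the 6 libraries on a log axis (WT blue, KO orange; circles replicate 1, squares replicate 2, triangles replicate F1), ordered by stage and then by mean TPM. The mature genes span from a mean of 12.8 TPM for Aspa to 1030 TPM for Mbp. KO replicate 1 is the lowest point for 26 of the 29 genes, and the share of all genes lowest there in TPM was not counted.

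The comparison of KO with WT asked whether loss of ADAM17 in glutamatergic neurons changed gene expression in this tissue. For the lineage, none of the 29 genes passed over all 18956 genes tested in edgeR (0 called), where 0.00528% of all genes passed. Only 1 member, Cnp, had an unadjusted p under 0.05, against 6.38% of all genes. DESeq2, which called 0.403% of the genes it tested, also called none of the 29, and neither did limma-voom or limma-trend. The log2 fold changes of the members lay between −0.27 for Cnp and 0.33 for Enpp6, that is between 0.831-fold and 1.26-fold, with standard errors (SE) from 0.091 to 0.25. Of the 29, 15 lay above 0 and 14 below, where 50.6% of all genes tested lay below. The KO libraries lay entirely below the WT libraries for 1 member, Gpr17, against 7.32% of all genes, and entirely above for none, against 6.61%. With library totals in place of TMM the median of all genes moved to −0.17, and the members moved with it. Fewer cells of a type and less RNA per cell cannot be told apart in these tissue libraries.

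**Figure D2:**
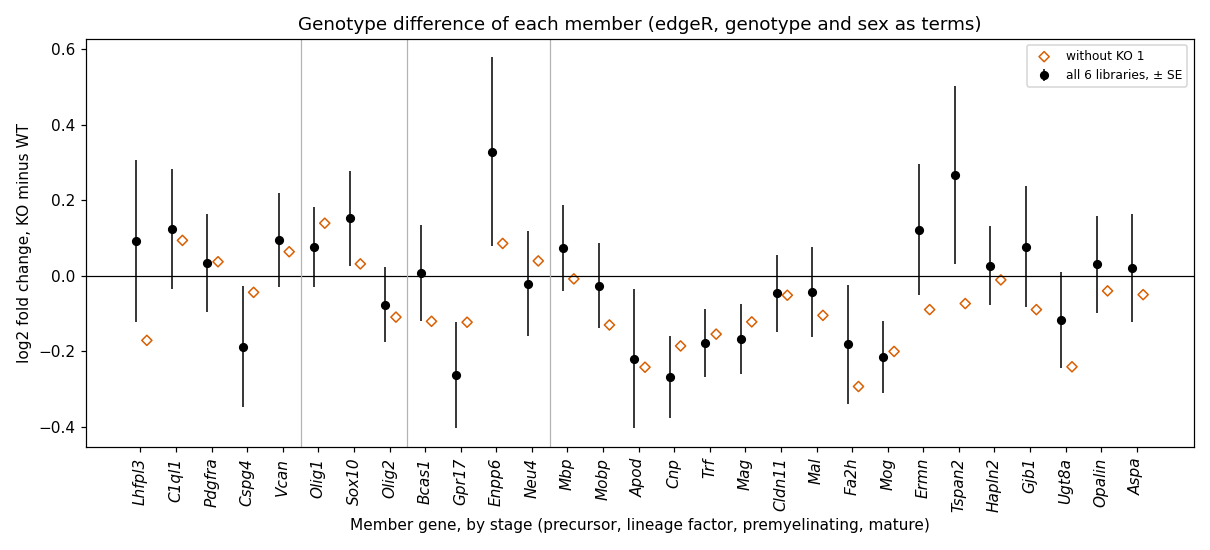
Log2 fold change, KO minus WT, of each member from all 6 libraries (black points, bars ± SE) and without KO replicate 1 (open orange diamonds), in the same order of genes. The black points of the mature genes fall on both sides of 0, from −0.27 for Cnp to 0.27 for Tspan2, while all 17 diamonds of mature genes lie below 0.

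Precursor genes differed little between the genotypes. Pdgfra, the receptor through which precursors respond to platelet-derived growth factor, measured 54.6, 48.0 and 67.9 CPM across the WT libraries against 55.1, 60.6 and 57.4 CPM across KO. The 3 KO values lay inside the range of the WT values (log2 fold change 0.034, SE 0.13, edgeR adjusted p = 0.952). Cspg4, which encodes the NG2 proteoglycan of precursors and is also made by pericytes, measured 21.4, 22.3 and 26.7 CPM across the WT libraries against 15.6, 23.0 and 23.0 CPM across KO. Its log2 fold change was −0.19 (SE 0.16, edgeR adjusted p = 0.801). It was −0.044 without KO replicate 1 and −0.37 without KO replicate 2. Lhfpl3, a tetraspan membrane protein gene of precursors, ranged from 32.5 to 52.1 CPM with its extremes in WT replicate 2 and KO replicate 1. Its log2 fold change was 0.092 (SE 0.21) with all libraries and −0.17 without KO replicate 1. C1ql1, a secreted protein of the C1q family, had a log2 fold change of 0.12 (SE 0.16), and Vcan, a large chondroitin sulfate proteoglycan of the matrix, one of 0.096 (SE 0.12). The median of the 5 genes was 0.092, beside −0.0036 over all genes tested.

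Olig1 and Olig2 are basic helix-loop-helix factors that specify the lineage, and Sox10 is a SOX factor that drives myelin genes in concert with other regulators. Olig2 measured 45.8, 49.6 and 50.7 CPM across the WT libraries against 48.0, 45.4 and 45.1 CPM across KO. Its coefficient of variation over the 6 libraries was 4.96%, the lowest of the 29, beside 7.58% for Olig1, 12.6% for Sox10, a median of 11.8% over the members and 11.7% over the 11002 genes in the same range of CPM. Its log2 fold change was −0.076 (SE 0.10, edgeR adjusted p = 0.862). Olig1 measured 165, 169 and 184 CPM across the WT libraries against 165, 199 and 181 CPM across KO (a log2 difference of 0.076, SE 0.11). Sox10 stood between 60.9 and 66.3 CPM in 5 libraries and at 83.1 CPM in KO replicate 1. Its log2 fold change was 0.15 (SE 0.12) with that library and 0.032 without it.

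The regulatory sequence of the lineage genes gives context for these factors. RefSeq promoters (GRCm38.p6) matched 21 of the 29 genes by symbol, 27 promoters in all, the others being C1ql1, Olig1, Sox10, Gpr17, Bcas1, Mbp, Trf and Fa2h, and the 250 bases before the start were searched on both strands. The string ACAANG, with any base at N and called the SOX core here, was in 16 of the 27 (13 of the 21 genes). The share over 32851 promoters of all genes was 36.3%. The E-box CAGNTG, the kind of site that basic helix-loop-helix factors such as Olig2 bind, was in 14 of the 27, beside 44.8% of all. Promoters of 1 gene can overlap each other, and a match is a string of letters, not a measured binding site. Promoters of 4 genes are shown, with the SOX core on either strand in capitals: Mobp, the most abundant member with an entry, Cnp and Mog, the mature genes with the smallest p between genotypes, and Pdgfra, the precursor receptor. Mobp held 6 SOX cores and no E-box, Cnp 1 and 1, Mog 1 and none, and Pdgfra 1 and 1. No SOX core overlapped an E-box in them.
Mobp, chr9:120149492-120149741, plus strand: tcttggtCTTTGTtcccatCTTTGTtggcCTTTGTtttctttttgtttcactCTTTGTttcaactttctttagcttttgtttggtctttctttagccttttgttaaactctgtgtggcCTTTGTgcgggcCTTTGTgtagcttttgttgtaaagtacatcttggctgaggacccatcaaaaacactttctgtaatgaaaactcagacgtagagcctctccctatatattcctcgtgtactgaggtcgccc
Cnp, chr11:100574689-100574938, plus strand: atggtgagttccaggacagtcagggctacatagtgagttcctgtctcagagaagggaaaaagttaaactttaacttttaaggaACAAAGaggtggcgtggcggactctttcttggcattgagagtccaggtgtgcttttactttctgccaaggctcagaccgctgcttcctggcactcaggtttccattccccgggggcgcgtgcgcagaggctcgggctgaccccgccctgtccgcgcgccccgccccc
Mog, chr17:37023399-37023648, minus strand: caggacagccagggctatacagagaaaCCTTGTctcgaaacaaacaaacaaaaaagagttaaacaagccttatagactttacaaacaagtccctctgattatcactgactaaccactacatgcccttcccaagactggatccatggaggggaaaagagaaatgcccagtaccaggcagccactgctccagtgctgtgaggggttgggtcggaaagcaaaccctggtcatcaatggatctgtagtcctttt
Pdgfra, chr5:75152001-75152250, plus strand: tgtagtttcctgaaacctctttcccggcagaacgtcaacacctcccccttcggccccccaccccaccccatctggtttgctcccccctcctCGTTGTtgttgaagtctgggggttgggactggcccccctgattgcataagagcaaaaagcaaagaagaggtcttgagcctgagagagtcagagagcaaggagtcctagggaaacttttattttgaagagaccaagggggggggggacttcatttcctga

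Premyelinating genes held both the highest and one of the lowest fold changes of the lineage. Gpr17, a receptor of cells that have left the precursor state and do not yet myelinate, measured 53.3, 52.2 and 50.5 CPM across the WT libraries against 35.3, 47.8 and 47.0 CPM across KO. All KO values lay below all WT values, but the log2 fold change of −0.26 (SE 0.14, edgeR adjusted p = 0.744) missed the threshold, and it was −0.12 without KO replicate 1. Exons of Gpr17 overlap exons of Lims2 on the other strand, and since the counting strand is not given in the sources used here its count is uncertain to that extent. Enpp6, a choline phosphodiesterase of newly formed oligodendrocytes, measured 7.996, 6.50 and 8.98 CPM across the WT libraries against 13.3, 9.25 and 7.38 CPM across KO. Its value in KO replicate 1 was the highest of the 6, and the log2 fold change of 0.33 (SE 0.25, edgeR adjusted p = 0.786) was 0.086 without it. Bcas1, a marker of early myelinating cells, stood between 186 and 234 CPM (log2 fold change 0.0084, SE 0.13), and Neu4, a sialidase, between 6.67 and 8.58 CPM (−0.021, SE 0.14). The median of the 4 genes was −0.0061.

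Mbp and Mobp had the highest TPM of the 29 genes, with means of 1030 and 793 TPM. Mbp, the myelin basic protein that holds the cytoplasmic faces of myelin together, measured 817, 910 and 984 CPM across the WT libraries against 1035, 904 and 909 CPM across KO. Its highest value was in KO replicate 1 and its lowest in WT replicate 1, with a log2 fold change of 0.074 (SE 0.11, edgeR adjusted p = 0.885). Mobp, another basic protein of compact myelin, measured 911, 905 and 984 CPM across the WT libraries against 1011, 807 and 929 CPM across KO (−0.027, SE 0.11, adjusted p = 0.958). Mal, a proteolipid of myelin membrane rafts, and Cldn11, the claudin of tight junctions between myelin layers, lay at −0.042 (SE 0.12) and −0.046 (SE 0.10) on that scale. Opalin, a membrane glycoprotein of oligodendrocytes, had one of 0.031 (SE 0.13).

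Cnp and Mog had the smallest p for genotype among the mature genes, and neither passed the test. Cnp, a phosphodiesterase of the cytoplasmic channels of myelin, measured 250, 226 and 273 CPM across the WT libraries against 174, 203 and 249 CPM across KO. KO replicate F1 lay above WT replicate 2, so the genotypes overlapped. Within each sex every KO library lay below every WT library, as also for Mog, Mag, Trf and Gpr17, and no member had the reverse order. The share of all genes with such an order was not counted, so these orders are not shown to be particular to the lineage. The log2 fold change was −0.27 (SE 0.11, unadjusted p = 0.0435, edgeR adjusted p = 0.735), and exons of Cnp overlap exons of Dnajc7 on the other strand. Mog, a surface protein of the outermost myelin layer, measured 37.8, 37.2 and 45.1 CPM across the WT libraries against 31.4, 31.3 and 41.2 CPM across KO. Its log2 fold change was −0.21 (SE 0.095, edgeR adjusted p = 0.735). Mag, the adhesion protein of the layer next to the axon, measured 121, 129 and 144 CPM across the WT libraries against 104, 113 and 135 CPM across KO (−0.17, SE 0.092, edgeR adjusted p = 0.745). Leaving out any 1 library kept the log2 fold changes of these 3 genes between −0.34 and −0.12.

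The other mature genes spread to both sides of 0. Of the lipid enzymes, Ugt8a, which makes galactosylceramide, had a log2 fold change of −0.12 (SE 0.13), and Fa2h, which hydroxylates the fatty acids of myelin lipids, one of −0.18 (SE 0.16). Fa2h stood between 51.5 and 58.6 CPM in 5 libraries and at 36.7 CPM in KO replicate F1, and its log2 fold change in the males alone was 0.036. Aspa, which cleaves N-acetylaspartate, had a log2 fold change of 0.020 (SE 0.14). Trf, the iron carrier transferrin, had −0.18 (SE 0.091), and it is also made by the choroid plexus. Gjb1, the gap junction protein connexin 32, had 0.077 (SE 0.16), Hapln2, a link protein at nodes of Ranvier, 0.027 (SE 0.10), and Ermn, a cytoskeletal protein of oligodendrocytes, 0.12 (SE 0.17). Tspan2, a tetraspanin of the lineage, stood between 78.5 and 101 CPM in 5 libraries and at 149 CPM in KO replicate 1. Its log2 fold change was 0.27 (SE 0.24) with that library and −0.073 without it. The 17 mature genes had a median of −0.042, with 10 below 0.

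One library held many of the extreme values, among the members as among all genes tested. KO replicate 1, the library with 20.6% mitochondrial counts, held the highest CPM of 12 members and the lowest of 8, together 20 of the 29. Over all genes tested it held the highest value for 28.3% and the lowest for 29.5%, more than any other library. Its median absolute deviation from the mean of the other 5 libraries, in log2 CPM, was 0.228 for the members. It was 0.295 for all genes with a transcript in the annotation. Tspan2 lay 0.73 above the mean of the other 5 libraries on the log2 CPM scale, Enpp6 0.74 and Ermn 0.47, whereas Cspg4 lay at −0.57, Gpr17 at −0.50 and Cnp at −0.46. The deviation of KO replicate 1 had a Spearman correlation with the GC content of the transcript of −0.34 across the 29 members, which share that library and its depth, and of −0.34 across 18909 genes with a transcript in the annotation. For KO replicate 2 the correlation with GC content was 0.48 across the members and 0.24 across those genes. In the remaining libraries it lay between −0.07 and 0.19 across the members. With transcript length, KO replicate 1 had a correlation of 0.12 across the members and 0.24 across those genes. The part of base composition, length or the mitochondrial share in these values was not tested.

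**Figure D3:**
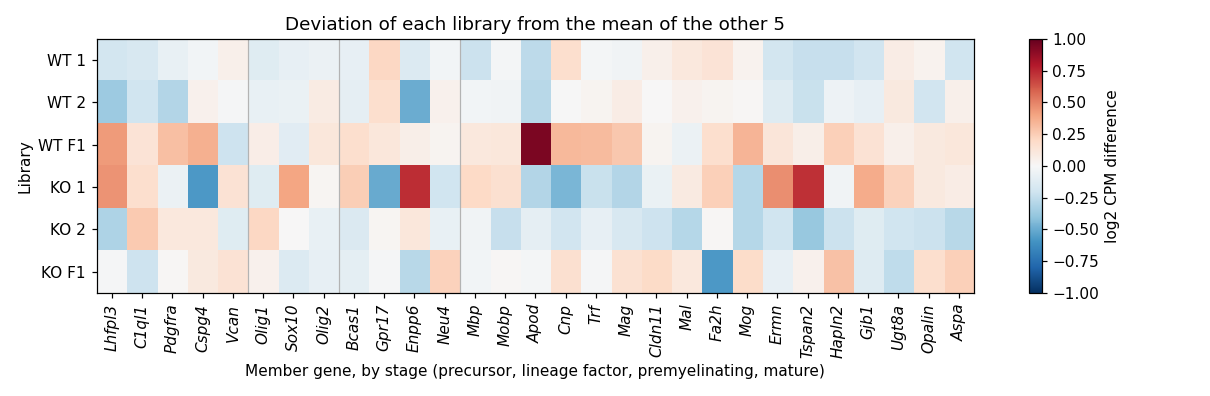
Difference of each library from the mean of the other 5 in log2 CPM, for each member (columns, by stage) and library (rows), red above and blue below. KO replicate 1 shows strong colours in both directions, for example 0.73 for Tspan2 and −0.57 for Cspg4, and the strongest single cell is Apod in WT replicate F1 at 0.94.

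Without KO replicate 1 the mature genes all leaned one way. All 17 then had log2 fold changes below 0, from −0.29 for Fa2h to −0.0080 for Mbp, with a median of −0.10, while 50.2% of all genes tested lay below 0. None of the 29 was called in that edgeR fit, and 2 were lower at an unadjusted p under 0.05, against 3.68% of all genes. The 5 precursor genes were at a median of 0.037 in the same fit, with 2 below 0. With WT replicate F1, the library with the highest mean of the mature genes, left out as well, 9 of the 17 lay below 0. Their median was −0.0093, and 49.5% of all genes lay below 0. That fit has no sex term and sets WT males against KO replicate 2, a male, and KO replicate F1, a female. In female minus male 15 of the 17 genes lay above 0 (median 0.14). Genotype and sex are mixed in that fit, so it cannot decide whether the lean came from WT replicate F1. With only WT replicate F1 left out, the sex term takes up the other female library and only males are compared. In that fit 8 of the 17 lay below 0, and without KO replicate 2, 7 of the 17 did. The mean log2 CPM of the 17 genes was 6.40, 6.41 and 6.61 in WT and 6.49, 6.29 and 6.47 in KO, so the groups overlapped.

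The sexes were compared in the same fit, with 1 female library per genotype. None of the 29 genes passed in edgeR, where 0.0422% of all genes did, and DESeq2 called none. In all, 5 members had an unadjusted p under 0.05, against 4.58% of all genes, and all 5 were higher in females, against 1.95% of all genes. They were all mature genes, namely Apod, Mog, Hapln2, Mag and Cnp. Apod, a lipid-binding lipocalin, measured 139, 138 and 279 CPM across the WT libraries against 137, 154 and 160 CPM across KO. The WT female library stood far above the other 5, and the log2 difference, female minus male, was 0.60 (SE 0.19, edgeR adjusted p = 0.941). Mog had a difference of 0.33 (SE 0.10), Hapln2 one of 0.33 (SE 0.11), Cnp 0.30 (SE 0.11) and Mag 0.26 (SE 0.097), each with an adjusted p of 0.941. Both female libraries lay above all 4 male libraries for Apod, Mog, Mag and Hapln2, and also for Aspa and Opalin. For Opalin the gap was nearly nil, at 15.96 CPM in WT replicate F1 against 15.95 CPM in KO replicate 1. The share of all genes with that order was not counted, so it is not shown to be particular to the lineage.

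The genotype difference was also compared between the sexes. None of the 29 genes passed the interaction test in edgeR, where 0.0739% of all genes did, and 3 had an unadjusted p under 0.05, namely Apod, Fa2h and C1ql1, against 7.42% of all genes. For Apod the log2 fold change, KO minus WT, was 0.070 in the males and −0.80 between the 2 female libraries (interaction adjusted p = 0.342). For Fa2h it was 0.036 and −0.62, and for C1ql1 0.33 and −0.29. Apod was called without KO replicate 1 (adjusted p = 0.0179, with 1.68% of all genes called) and, with 5 other members, without KO replicate 2 (adjusted p = 0.0183, with 7.71% of all genes called). Both fits have 1 residual degree of freedom, and each female arm and the KO male arm is a lone library assumed to vary like the rest.

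Markers of other cells moved between libraries too. Apod, Pdgfra and Vcan are also made by fibroblasts of brain vessels and meninges, and Cspg4 by pericytes. The list of 10 pericyte and fibroblast genes summed to 217, 209 and 310 CPM across WT against 276, 265 and 249.9 CPM across KO. It was highest in WT replicate F1, where 7 of its 10 genes had their highest value and none was at 0. Dcn, a fibroblast proteoglycan, stood at 41.3 CPM there and at 33.4 CPM in KO replicate 2, and between 11.4 and 17.6 CPM in the other 4 libraries. The part of these cells in the Apod value was not tested. Choroid plexus genes, relevant to Trf, summed to 169.7 to 736 CPM in WT and 333 to 423 CPM in KO, and were lowest in WT replicate F1, where Trf was highest at 216 CPM. Schwann cells share Mbp, Mag and Mal with the lineage. Their list of 6 genes summed to 27.7 to 34.5 CPM in WT and 30.9 to 49.2 CPM in KO, and Pmp2, a lipid-binding protein gene of their myelin, had 0 counts in all 6 libraries. The 4 genes of that list that were tested all lay above 0 in KO minus WT, with a median of 0.31. Egr2, a transcription factor of Schwann cells that active neurons also make, measured 3.67, 4.88 and 2.12 CPM across WT against 10.25, 10.5 and 4.02 CPM across KO. The log2 fold change of 1.16 (SE 0.18) was called by DESeq2 (adjusted p = 9.73e-05) and not by edgeR (adjusted p = 0.568), and it was named after its values were seen. Neuron markers summed to 8035, 8514 and 7246 CPM in WT and 11150, 9103 and 8464 CPM in KO, the highest in KO replicate 1. Of these 10 genes 6 had their highest value in that library, whereas Tubb3 and Eno2 had their lowest there. In KO minus WT 6 of the 10 lay above 0 and 4 below.

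**Figure D4:**
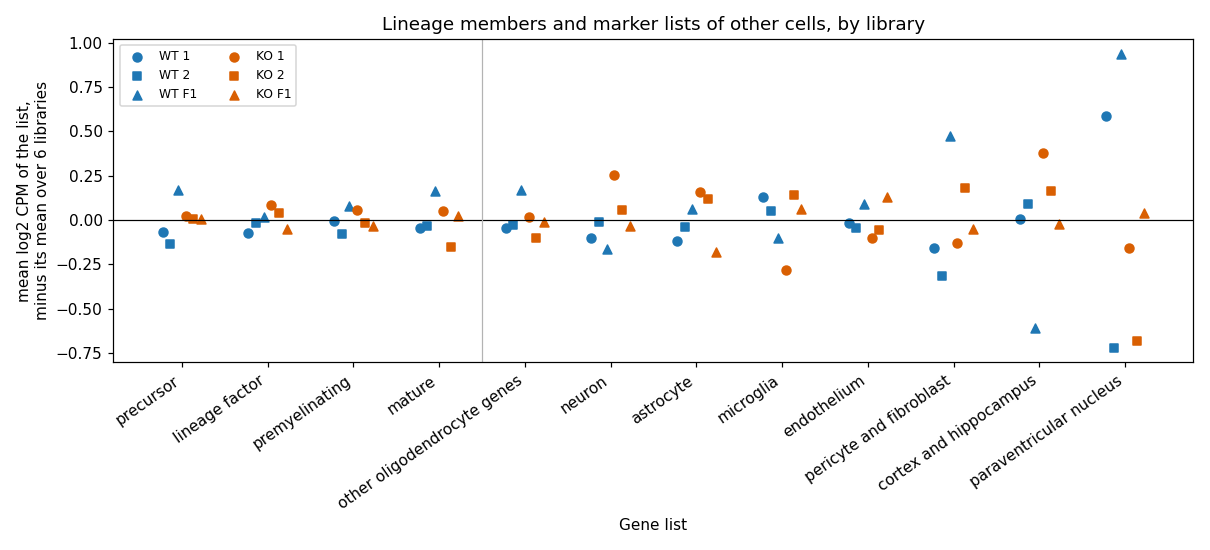
Mean log2 CPM of each gene list minus its own mean over the 6 libraries, for the 4 groups of members (left of the line) and for other gene lists, with colours and symbols as in the plot of TPM. WT replicate F1 is highest for the mature genes at a mean of 6.61, and the pericyte and fibroblast, cortex and hippocampus, and paraventricular lists spread more widely than the member groups.

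Other genes of the lineage and its lipid supply were compared from separate lists. Of 30 further oligodendrocyte genes, 10 lay above 0 and 20 below with a median of −0.077, and 0 were called in edgeR. In the males alone 15 of the 30 lay below 0 (median 0.013), and without KO replicate 1 24 did (median −0.14). An unadjusted p under 0.05 was found for 7, 5 lower and 2 higher, where 2.53% of all genes were lower and 3.85% higher. Their smallest p belonged to Omg, the oligodendrocyte myelin glycoprotein that neurons also make, with means of 139.5 CPM (WT) and 195 CPM (KO) (log2 difference 0.47, SE 0.14), and to Ppp1r14a, a phosphatase inhibitor, at 15.8 and 11.5 CPM (−0.46, SE 0.15), both with an edgeR adjusted p of 0.735. Myrf, the transcription factor of myelination, had a log2 fold change of 0.22 (SE 0.16). Of 15 further precursor genes, 7 lay above and 8 below (median −0.029). The median was 0.023 without KO replicate 1 and 0.027 in the males alone. Cholesterol is a main lipid of myelin, and of 21 genes of its synthesis and uptake 5 lay above and 16 below, with a median of −0.087. Fdps, which makes farnesyl diphosphate, had WT and KO means of 38.2 and 30.9 CPM (−0.30, SE 0.13, edgeR adjusted p = 0.735). Sphingolipid and galactolipid enzymes were even, with 7 of 14 on each side (median 0.0037), though 10 of the 14 lay below 0 without KO replicate 1 (median −0.063), and Sgms1, a sphingomyelin synthase, had means of 28.2 and 39.4 CPM (0.48, SE 0.13, edgeR adjusted p = 0.735).

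Genes of the neuronal side of the axon and glia contact were compared as well. Of 12 genes for axonal partners at nodes and paranodes 11 lay above 0 (median 0.11), and none was called in edgeR, with 1 at an unadjusted p under 0.05. The median was 0.031 in the males alone, with 4 of the 12 below 0. It was −0.015 without both WT replicate F1 and KO replicate 1, with 7 below 0, where genotype and sex are mixed. The gene with that p was Lingo1, a neuronal receptor subunit that restrains myelination, with means of 309 CPM (WT) and 401 CPM (KO) (log2 difference 0.37, SE 0.10, edgeR adjusted p = 0.735). The neuron list had a median of 0.21 with all 6 libraries, 0.24 in the males alone and 0.040 without KO replicate 1. Of 16 genes for growth signals to the lineage, among them neuregulins, Pdgfa and the ErbB receptors, 11 lay above 0 (median 0.12) and none had an unadjusted p under 0.05. Without KO replicate 1 the median was 0.013, with 7 of the 16 below 0. Nrg3, a neuregulin of neurons, had means of 39.2 and 48.7 CPM (0.31, SE 0.13, edgeR adjusted p = 0.735), and Lif, a cytokine that promotes survival of oligodendrocytes, had means of 1.15 and 0.776 CPM (−0.55, SE 0.27, edgeR adjusted p = 0.738). The largest fold of the list was that of Tgfa, a ligand of the epidermal growth factor receptor that ADAM17 is known to release. It measured 57.6, 42.7 and 8.59 CPM across WT against 70.25, 54.1 and 50.2 CPM across KO (1.01, SE 0.50, edgeR adjusted p = 0.744), with its only low value in WT replicate F1. In the males its log2 fold change was 0.31, and the interaction of genotype and sex did not pass (unadjusted p = 0.000856, edgeR adjusted p = 0.196).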

How the data were processed

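Per the labels' protocols, total RNA came from a Tri-zol extraction and mRNA libraries were prepared from it. The tools FastQC 0.11.2, Trimmomatic 0.36 and bedtools 2.26.0 are named in the submitters' processing notes, whereas for the aligner, counter, strand setting and build the answer is: not given in the sources used here. Per the file headers, the authors deposited a count, a TPM and an FPKM value per gene and library. The FPKM values deposited were not used for results. Of 51633 gene IDs found in GENCODE M21 (GRCm38), 94.1% had identical coordinates, as had 26 of the 29 members.

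Genes were kept with filterByExpr (18956), scaled with TMM (trimmed mean of M-values) factors and tested with edgeR 4.0.16 (R 4.3.3) robust quasi-likelihood fits on genotype plus sex, with Benjamini-Hochberg adjustment over all genes and a threshold of 0.05. The fit was tested on simulated data. Standard errors are the log2 fold change over the square root of F. Differences between females alone add 0.05 CPM to each value. GC content and length are those of the longest protein-coding transcript. Lists of members are described by counts and medians, without a test of the list. At these depths 3 counts equal 0.055 to 0.085 CPM, counting error only. Exons of 10 members overlap another gene, which makes these counts uncertain, namely Pdgfra, Lhfpl3, Olig1, Gpr17, Bcas1, Mobp, Cnp, Ermn, Trf and Tspan2.

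The members, the lists and the tests were chosen with earlier results of these data known. All members are given. Full values go, by stage, to the 2 with the smallest p for genotype, the 2 with the smallest p for sex and the 2 with the highest mean TPM. The further oligodendrocyte, cholesterol, sphingolipid, axonal partner and growth signal lists add genes with their smallest p. Lists of other cells and regions are not all described. Some further genes, Mag, Myrf and Dcn among them, were picked with their values in view. The alternatives tried included DESeq2 1.42.0, its size factors, library totals, no filter, limma 3.58.1 (voom with quality weights, and trend on log2(TPM + 1)), no sex term, a replicate block, males only, no mitochondrial genes, and each library left out.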

Additional observations from a re-analysis of the deposited data

How the results depend on the processing

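No member was called between the genotypes under any alternative run, in edgeR, DESeq2 or limma. The count over all genes, 1 as reported, was 75 with DESeq2, 18 in the males, 3 without the sex term, 4 without a filter, 4 with voom, 4 with limma-trend on TPM, 0 to 20 with 1 library left out and 27 without WT replicate F1 and KO replicate 1, a setting chosen after seeing the data. With the replicate block 0 genes passed. Same-numbered libraries had correlations of deviations of −0.044, 0.019 and 0.018, so the numbers were not taken as pairs. The count for sex, 8 as reported, was 13 without a filter, 52 with DESeq2 and 6 to 13 with 1 male library left out. The count for the interaction, 14 as reported, was 1 with library totals, 36 without a filter, 237 with DESeq2 and 159 to 1493 with 1 male library left out, where 0 to 6 members were called.

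With library totals the medians were −0.094, −0.082, −0.18 and −0.22 for precursor, lineage factor, premyelinating and mature genes, beside −0.17 over all genes, and with limma-trend on TPM −0.21, −0.22, −0.27 and −0.33, beside −0.24. With 1 library left out the medians ranged from −0.019 to 0.17 for precursor, −0.019 to 0.12 for lineage factor, −0.040 to 0.024 for premyelinating and −0.10 to 0.055 for mature genes. The lineage factor median was 0.010 without both WT replicate F1 and KO replicate 1, a fit without a sex term whose only female library is KO. The cause of these moves was not tested, and no member of those below was called. Log2 fold changes turned sign with library totals for Pdgfra (−0.13), Vcan (−0.077), Lhfpl3 (−0.093), C1ql1 (−0.040), Olig1 (−0.082), Sox10 (−0.024), Bcas1 (−0.17), Mbp (−0.10), Ermn (−0.060), Opalin (−0.14), Aspa (−0.15), Gjb1 (−0.10) and Hapln2 (−0.14). They turned on TPM for Pdgfra (−0.26), Vcan (−0.17), Lhfpl3 (−0.21), C1ql1 (−0.16), Olig1 (−0.22), Sox10 (−0.14), Bcas1 (−0.29), Enpp6 (−0.15), Mbp (−0.23), Ermn (−0.18), Opalin (−0.24), Aspa (−0.25), Gjb1 (−0.21), Tspan2 (−0.067) and Hapln2 (−0.22), with voom for Lhfpl3 (−0.033), Bcas1 (−0.043), Opalin (−0.041), Aspa (−0.055) and Hapln2 (−0.0088), without a filter for Bcas1 (−0.0068), in the males for Vcan (−0.0032), Mobp (0.0012), Aspa (−0.021), Fa2h (0.035) and Apod (0.070), and without WT replicate F1 and KO replicate 1 for Cspg4 (0.080), Bcas1 (−0.027), Neu4 (0.070) and Apod (0.18). Ranges with 1 library left out crossed 0 for Bcas1 (−0.12 to 0.12), Aspa (−0.050 to 0.11), Hapln2 (−0.012 to 0.074), Pdgfra (−0.058 to 0.17), Lhfpl3 (−0.17 to 0.32), Neu4 (−0.12 to 0.040), Opalin (−0.040 to 0.11), Vcan (−0.0034 to 0.19), Mobp (−0.13 to 0.055), Fa2h (−0.29 to 0.035), Apod (−0.35 to 0.070), Mbp (−0.0080 to 0.17), Ermn (−0.089 to 0.27), Gjb1 (−0.089 to 0.23), Tspan2 (−0.073 to 0.46), Olig1 (−0.019 to 0.14), Cldn11 (−0.14 to 0.016) and Mal (−0.13 to 0.070).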
